A study of Mus musculus with 36 samples.

Results

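Osteoclast resorption genes are described here as the set of Ctsk, Acp5, Mmp9, Oscar, Nhedc2, Tcirg1 and Car2, chosen by name: every probe that the array table assigns to one of these symbols. The 7 genes hold 11 probes of the 25697 on the array and are 7 of its 18138 gene symbols. All 7 had a probe bright enough to be tested, among 10291 tested genes. Nhedc2 is the array's older name of Slc9b2.

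Osteoclasts are large cells, formed by fusion of cells of the monocyte lineage, that take away mineralized bone and calcified cartilage. They seal off an area of matrix, pump acid into it to dissolve the mineral and release proteases that cut the exposed collagen. In a healing fracture they clear the calcified cartilage of the soft callus and later shape the bony callus.

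RNA was taken from the femur of male C57BL/6N mice, WT or RAG1-/-, 8 weeks of age, at D0, D3, D7, D14, D21 and D28 after a closed femoral fracture held with an intramedullary pin. RAG1-/- mice cannot rearrange antigen receptor genes and therefore have no mature T or B cells. The study treats D0 as intact bone, although its tissue label reads like that of the fracture groups. Each of the 12 groups was 1 pool of 5 mice hybridised to 3 Illumina arrays, so p-values on a single day measure only the spread between arrays of a pool and not that between mice. Levels are given as normalised log2 signal, one unit being a doubling.

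The bases before a transcription start of Ctsk and Oscar are shown because both genes were lower in RAG1-/- on the same 4 days, and those of Nhedc2 because it rose most after fracture. The Nhedc2 window, which ends at 135307699, runs past the annotated start of the gene at 135307651 and so belongs to a later start. Sequences are from RefSeq (GRCm38.p6), 250 bases on the strand of the gene. Capitals mark GAGGAA (the core bound by PU.1), TGGAAA (the core bound by NFAT), TGANTCA (AP-1) and TCANGTG, on either strand. With N as any base, TCANGTG is wider than the sites of MITF and TFE factors, for which it was searched. No printed match overlaps another.
Ctsk, chr3:95498960-95499209, plus strand: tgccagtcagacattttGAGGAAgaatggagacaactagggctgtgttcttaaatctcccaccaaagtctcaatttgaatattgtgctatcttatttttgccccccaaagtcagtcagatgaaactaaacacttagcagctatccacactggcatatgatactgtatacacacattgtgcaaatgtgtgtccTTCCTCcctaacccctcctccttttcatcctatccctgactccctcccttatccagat
Oscar, chr7:3616158-3616407, minus strand: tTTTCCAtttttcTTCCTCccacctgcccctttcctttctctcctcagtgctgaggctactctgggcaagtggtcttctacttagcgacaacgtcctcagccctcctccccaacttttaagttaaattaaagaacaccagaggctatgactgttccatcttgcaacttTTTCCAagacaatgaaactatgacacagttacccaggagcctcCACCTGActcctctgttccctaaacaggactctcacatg
Nhedc2 (Slc9b2), chr3:135307450-135307699, plus strand: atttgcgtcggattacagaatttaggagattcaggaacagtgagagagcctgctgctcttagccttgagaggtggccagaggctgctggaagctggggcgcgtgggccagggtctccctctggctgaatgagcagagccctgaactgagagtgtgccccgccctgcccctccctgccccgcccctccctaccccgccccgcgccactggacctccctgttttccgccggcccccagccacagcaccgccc
The Ctsk window held 2 PU.1 matches, and the Oscar window 1 PU.1, 2 NFAT and 1 TCANGTG match, which reads TCAGGTG on the other strand. The Nhedc2 window held none of the 4. Of 32851 windows of this length, 23.3% held GAGGAA, 18.6% TGGAAA, 12.2% TCANGTG and 6.75% TGANTCA. A match describes letters only. In all, 5 of the 7 genes had 9 windows. Mmp9, which was lower in RAG1-/- on the same 4 days as Ctsk and Oscar, and Car2 had no window. A window of Acp5 held 1 TCANGTG and 1 NFAT match, and a window of Tcirg1 held 1 PU.1 match. None of the windows of Acp5 or Tcirg1 held TGANTCA.

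Several properties of the arrays bear on all values. The 6 WT arrays of D3 and D7 stood apart from the other 30, at 81.8 to 88.0 against -33.9 to 15.2 on a first principal component holding 38.5% of the variance. Where both probes of a gene passed the genotype test at D3, 24.5% of 632 genes had probes moving in opposite directions, against 7.28% of 151 at D0. Arrays 2 and 3 of WT D14 correlated at 0.996 with each other, at up to 0.981 with RAG1-/- D21 and at 0.934 to 0.937 with their own array 1, where arrays of the other WT groups correlated at 0.894 to 0.952 within a group. Arrays of RAG1-/- groups correlated at 0.984 to 0.996 within a group. The single-day fit shares 1 estimate of spread per gene over all groups, so its p-values do not reflect this difference in spread between the genotypes. The single Rag1 probe read 4.34 to 6.80 in WT, every RAG1-/- array lay within that range, and the filter level of 4.72 crosses it, so it cannot check the genotype labels. In such bulk tissue fewer osteoclasts and less RNA per osteoclast cannot be told apart.

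The label was checked against other genes that mark osteoclasts. The calcitonin receptor Calcr had group means of only 4.53 to 5.26. Atp6v0d2 (4.66), Itgb3 (4.42) and the fusion gene Ocstamp (4.57, listed as 4833422F24Rik) lay below the filter level on average and were not tested. Dcstamp (listed as Tm7sf4), also needed for fusion, passed and rose in both genotypes at D14, by 1.24 in WT and 1.31 in RAG1-/-. Of the members, Ctsk, Mmp9, Oscar and Tcirg1 were above the filter level in all 12 groups, Nhedc2 was at or below it in 2, Acp5 in 4 and Car2 in 9.

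**Figure D1:**
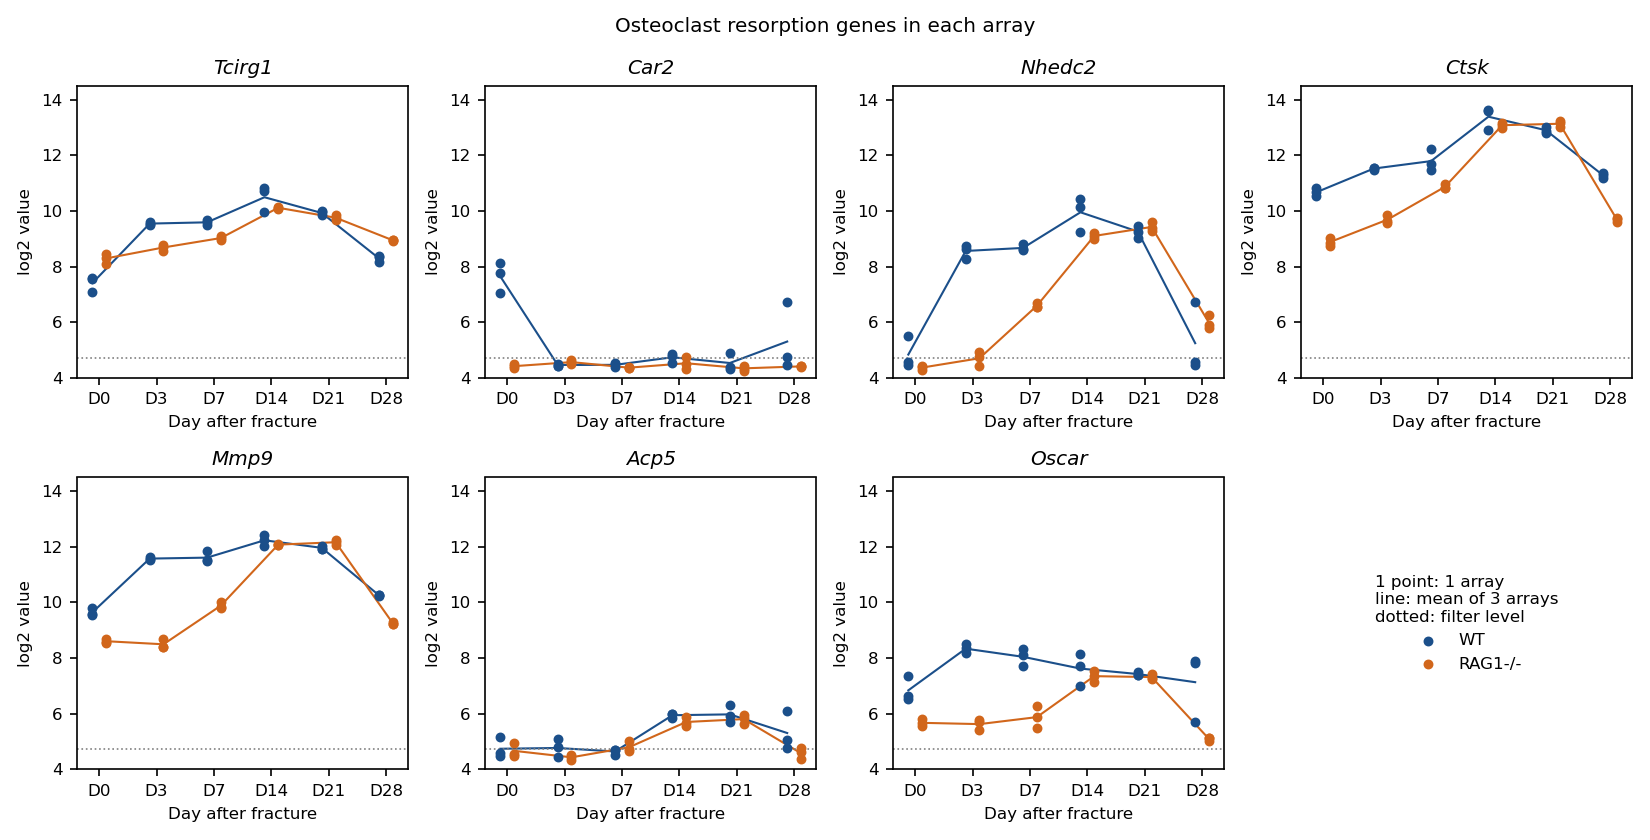
Log2 signal of each gene on the vertical axis against day on the horizontal axis, 1 point per array and a line through the means of 3 arrays, WT in blue and RAG1-/- in orange; the dotted line is the filter level of 4.72. The 6 panels other than Car2 are highest on D14 or D21 in RAG1-/-, with RAG1-/- below WT early for Nhedc2, Ctsk, Mmp9 and Oscar, while Car2 stands at 7.04 to 8.13 in WT D0, at 6.70 on 1 array of WT D28 and near the filter level elsewhere.

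Acid secretion. Tcirg1 encodes the a3 subunit of the proton pump in the ruffled border of osteoclasts. WT arrays read 7.08, 7.59 and 7.53 at D0, 9.51, 9.53 and 9.60 at D3, and 9.68, 9.48 and 9.61 at D7. RAG1-/- arrays read 8.32, 8.46 and 8.10 at D0, 8.57, 8.71 and 8.77 at D3, and 9.10, 8.94 and 9.04 at D7. RAG1-/- thus started above every WT array and was below every WT array at D3 and D7. Later, WT gave 9.95, 10.82 and 10.72 at D14, 9.98, 9.95 and 9.84 at D21, and 8.16, 8.37 and 8.34 at D28. RAG1-/- gave 10.09, 10.16 and 10.10 at D14, 9.68, 9.75 and 9.85 at D21, and 8.96, 8.91 and 8.96 at D28. Genotypes overlapped at D14 and D21, and RAG1-/- was again above WT at D28. In limma the difference, RAG1-/- minus WT, was 0.89 at D0, -0.86 at D3, -0.57 at D7 and 0.65 at D28, with adjusted p-values of 0.000154, 5.61e-05, 0.00471 and 0.00278. At D14 it was -0.38 and did not pass, but without the first WT array it was -0.65 (adjusted p = 0.000974), and without the other 2 WT arrays it turned to 0.17 (adjusted p = 0.714). Of its 3 other probes, ILMN_2746456 differed in the same directions, by 1.47, -1.27, -0.77 and 0.66 on those 4 days, and the others lay below the filter level in all 12 groups.

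Nhedc2 encodes a sodium/proton exchanger that is induced as osteoclasts form. WT arrays read 5.50, 4.55 and 4.44 at D0, 8.28, 8.75 and 8.65 at D3, and 8.58, 8.64 and 8.80 at D7. RAG1-/- arrays read 4.43, 4.37 and 4.28 at D0, 4.42, 4.94 and 4.73 at D3, and 6.52, 6.54 and 6.69 at D7. On its 1 probe the gene was high in WT by D3, when RAG1-/- was still near the filter level, and RAG1-/- was only part of the way at D7. The WT side of this timing rests on the arrays of D3 and D7 that stood apart. WT read 9.26, 10.16 and 10.44 at D14, 9.48, 9.04 and 9.26 at D21, and 6.71, 4.44 and 4.57 at D28. RAG1-/- read 8.99, 9.21 and 9.10 at D14, 9.59, 9.29 and 9.39 at D21, and 5.88, 5.79 and 6.26 at D28. RAG1-/- was below WT at D14, by a difference that did not pass (-0.85, adjusted p = 0.27), and the genotypes overlapped at D21. The difference was -3.86 at D3 (limma, standard error 0.37, adjusted p = 9.85e-10), against a RAG1-/- mean of 4.70 that lies below the filter level and so leaves the exact size unknown, and -2.09 at D7, where the adjusted p was 3.25e-05. At D28 RAG1-/- lay between the WT arrays, and the difference of 0.74 did not pass (adjusted p = 0.139), but without the first WT array it was 1.47 (adjusted p = 0.000168).

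Car2, carbonic anhydrase 2, supplies protons from carbonic acid in osteoclasts and is also abundant in red blood cells. WT D0 arrays read 8.13, 7.76 and 7.04, and RAG1-/- D0 arrays 4.33, 4.43 and 4.47. From D3 to D21 no array of either genotype exceeded 4.89, so the gene has no measurable course there. WT D28 read 4.46, 6.70 and 4.73 against 4.39, 4.42 and 4.40 in RAG1-/-. The D28 difference of -0.89 (limma, adjusted p = 0.0379) rested on the second WT array, and was -0.19 without it (adjusted p = 0.541). Its other probe, ILMN_2603504, was below the filter level in all groups, the D0 group of WT included. Car2 passed the filter on dim probes through WT D0 alone, so a difference there was fixed by the filter, and its size was -3.23 (adjusted p = 1.36e-08).

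Red cell genes moved with Car2 at D0. All 3 RAG1-/- D0 arrays had a mean erythroid level (16 tested genes of 23 on the array) of 5.93 to 5.95, against 9.79 to 9.87 in WT. At D0, 14 of the 16 were lower and 0 higher, beside 7.39% and 12.8% of all tested genes. Alas2, the first enzyme of red cell heme synthesis, had a mean of 12.22 (SD 0.03) over the 3 WT arrays and of 5.80 (SD 0.06) over the 3 RAG1-/- arrays. Ermap, an erythroid membrane protein, had group means closest to those of Car2, 8.16 in WT D0 and 4.56 in WT D3. Most red cell genes did not follow that course. From WT D0 to WT D3, 4 of the 16 fell, 1 rose and 11 did not pass (adjusted p under 0.01 in limma and over 2-fold). Of all tested genes, 14.0% fell and 13.3% rose. The mean erythroid level was 9.84 in WT D0 and 9.41 in WT D3, while Car2 averaged 7.64 and 4.45. The WT D3 arrays are among those that stood apart. The erythrocyte anion exchanger Slc4a1 averaged 14.49 in WT D0 and 15.17 in WT D3. The part of red cells in the Car2 difference was not tested.

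Proteases. Ctsk, cathepsin K, is the protease that cuts collagen in the resorption space. WT arrays read 10.67, 10.82 and 10.54 at D0, 11.48, 11.56 and 11.55 at D3, and 11.69, 11.48 and 12.23 at D7. RAG1-/- arrays read 9.04, 8.85 and 8.75 at D0, 9.84, 9.57 and 9.65 at D3, and 10.82, 10.96 and 10.82 at D7. On these 3 days every RAG1-/- array was below every WT array. WT then read 12.93, 13.64 and 13.61 at D14, 13.02, 12.81 and 12.89 at D21, and 11.17, 11.31 and 11.36 at D28. RAG1-/- read 13.00, 13.16 and 13.11 at D14, 13.02, 13.16 and 13.24 at D21, and 9.74, 9.72 and 9.60 at D28. Ctsk reached the same range in both genotypes at D14 and D21 and parted again at D28. Ctsk was lower in RAG1-/- by 3.46-fold at D0, 3.58-fold at D3, 1.90-fold at D7 and 3.02-fold at D28, with adjusted p-values of 2.7e-09, 3.09e-10, 3.55e-05 and 4.13e-08 in limma. At D14 it was -0.31 (adjusted p = 0.47), -0.54 without the first WT array (adjusted p = 0.0194) and 0.16 without the other 2 WT arrays (adjusted p = 0.789).

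Mmp9, a gelatinase, is made by osteoclasts and is also stored in neutrophil granules. WT arrays read 9.78, 9.59 and 9.56 at D0, 11.63, 11.57 and 11.54 at D3, and 11.48, 11.52 and 11.85 at D7. RAG1-/- arrays read 8.55, 8.70 and 8.56 at D0, 8.39, 8.41 and 8.68 at D3, and 9.83, 10.02 and 9.81 at D7. RAG1-/- at D3 overlapped its own D0, when WT was already above every one of its D0 arrays. The WT values of D3 and D7 are from the arrays that stood apart. WT read 12.03, 12.44 and 12.24 at D14, 11.93, 11.93 and 12.04 at D21, and 10.26, 10.22 and 10.26 at D28. RAG1-/- read 12.08, 12.06 and 12.11 at D14, 12.08, 12.26 and 12.16 at D21, and 9.28, 9.23 and 9.21 at D28. As for Ctsk, the genotypes overlapped at D14 and parted at D28. At D14 the difference was -0.16 (adjusted p = 0.75 in limma), but -0.31 with array weights (adjusted p = 0.0016). At D21 every RAG1-/- array was above every WT array, by a difference that did not pass (0.20, adjusted p = 0.241 in limma). RAG1-/- was lower by 2.05-fold at D0, 8.49-fold at D3, 3.31-fold at D7 and 2.01-fold at D28, with adjusted p-values of 1.8e-07, 6.75e-18, 2.08e-12 and 4.17e-07 in limma.

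Neutrophil genes are set beside Mmp9 for each day. Their mean level (19 tested of 25 on the array) was higher in RAG1-/- than in WT at D0, 8.62 to 8.67 against 7.76 to 7.90, at D3, 7.48 to 7.53 against 6.98 to 7.13, and at D7, 7.07 to 7.15 against 6.87 to 6.99, with 8, 8 and 7 of the 19 higher and 0, 4 and 4 lower. Of all tested genes, 12.8%, 26.1% and 27.2% were higher on those days and 7.39%, 23.5% and 21.4% lower. From D14 on the mean level was lower, at 5.54 to 5.64 against 6.48 to 7.00 at D14, 6.47 to 6.50 against 6.65 to 6.87 at D21 and 6.21 to 6.33 against 6.62 to 6.99 at D28, with 12, 4 and 7 lower and 0, 2 and 1 higher. Here 2.00%, 9.87% and 9.91% of all tested genes were lower and 2.65%, 14.7% and 19.5% higher. Mmp9 was lower in RAG1-/- at D0, D3 and D7, when the neutrophil mean was higher, and both were lower at D28. The comparisons of D3 and D7 rest on the WT arrays that stood apart. At D7 the median of the 19 differences was -0.18, opposite in sign to the mean. S100a8, an abundant neutrophil calcium-binding protein, averaged 11.66 in RAG1-/- and 7.55 in WT at D3, and 8.48 and 11.03 at D14, while S100a9, its partner, averaged 10.24 and 10.08 at D3. The part of neutrophils in the Mmp9 values was not tested.

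Phosphatase and receptor. Acp5, tartrate-resistant acid phosphatase (TRAP), is the classical stain for osteoclasts, and its probe was dim. WT read 4.58, 5.15 and 4.47 at D0, 5.98, 5.99 and 5.84 at D14, 6.31, 5.90 and 5.71 at D21, and 6.09, 5.06 and 4.74 at D28. RAG1-/- read 4.95, 4.54 and 4.48 at D0, 5.57, 5.86 and 5.66 at D14, 5.61, 5.95 and 5.84 at D21, and 4.74, 4.61 and 4.36 at D28. At D3 and D7 no array of either genotype exceeded 5.07. The genotypes overlapped on every day, and at D28 WT array 1 stood apart at 6.09. The D28 difference of -0.73 (limma, adjusted p = 0.0236) was -0.33 without that array (adjusted p = 0.247).

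Oscar is an immunoglobulin-like receptor of osteoclasts that binds collagen and signals through the adaptor Fcer1g. WT arrays read 6.51, 6.64 and 7.36 at D0, 8.49, 8.35 and 8.18 at D3, and 8.11, 8.31 and 7.71 at D7. RAG1-/- arrays read 5.79, 5.53 and 5.67 at D0, 5.76, 5.42 and 5.68 at D3, and 5.87, 5.49 and 6.26 at D7. RAG1-/- lay below WT on these days, and its D3 and D7 arrays overlapped those of D0. WT read 6.98, 7.73 and 8.15 at D14, 7.50, 7.37 and 7.40 at D21, and 7.81, 5.69 and 7.88 at D28. RAG1-/- read 7.13, 7.37 and 7.54 at D14, 7.42, 7.25 and 7.27 at D21, and 5.11, 5.02 and 5.13 at D28. The genotypes overlapped at D14 and D21, and the second WT array at D28 lay far below the other 2. In limma RAG1-/- differed by -1.17 at D0, -2.72 at D3, -2.17 at D7 and -2.04 at D28, with adjusted p-values of 0.0197, 3.29e-07, 1.2e-05 and 8.62e-05. The D28 call was lost with only the compared groups in the fit (adjusted p = 0.0667) and by the methods' t-test (adjusted p = 0.149). The D0 call was lost by the methods' t-test (adjusted p = 0.0571), without WT array 3 (-0.91, adjusted p = 0.126), and without RAG1-/- array 2 (adjusted p = 0.0709) or 3 (adjusted p = 0.0535).

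Ordered by level over the 12 groups, WT D14 stood first for Tcirg1, Nhedc2, Ctsk and Mmp9, at means of 10.49, 9.95, 13.39 and 12.24. For Ctsk it was followed by RAG1-/- D21 (13.14), RAG1-/- D14 (13.09) and WT D21 (12.91), and these 4 neighbours did not differ beyond their arrays. RAG1-/- D0 stood last for Ctsk (8.88) and Nhedc2 (4.36), RAG1-/- D3 for Mmp9 (8.49) and Acp5 (4.42), RAG1-/- D28 for Oscar (5.09), WT D0 for Tcirg1 (7.40) and RAG1-/- D21 for Car2 (4.33). Oscar alone had WT D3 first (8.34), and Acp5 WT D21 (5.97). Of 11 neighbouring pairs, 4 were not separated for Mmp9, 5 for Ctsk, 6 for Tcirg1, 8 for Nhedc2, 9 for Oscar and Car2, and 11 for Acp5.

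Set side by side by day, RAG1-/- was lower for 4 of the 7 genes and higher for 1 at D0, where 20.2% of all tested genes passed, 7.39% lower and 12.8% higher. Of these, Car2 was fixed by the filter, and without it 3 of 6 were lower and 1 higher. At D3, 5 of 7 were lower and 0 higher, against 49.6% of all genes in either direction and 23.5% lower. At D7, 5 of 7 were again lower, against 48.5% in either direction and 21.4% lower. The same 5 genes, Tcirg1, Nhedc2, Ctsk, Mmp9 and Oscar, made up both counts, and they rest on the WT arrays that stood apart. None passed at D14 (4.65% of all genes) or at D21 (24.6%). The limma count of 0 at D14 compares with 2 genes at an unadjusted p under 0.05, 0 by the methods' t-test and 6 with array weights. At D21 it compares with 0 unadjusted and 0 by either of these. At D28, 5 were lower and 1 higher, against 29.4% in either direction, 9.91% lower and 19.5% higher. Without Car2, 4 of 6 were lower and 1 higher. The D28 call was lost in 8 of 12 alternatives for Car2, 5 of 12 for Acp5 and 2 of 13 for Oscar. The median difference of the 7 was -1.04, -1.84, -0.93, -0.27, -0.11 and -0.89 from D0 to D28, while that of all tested genes lay between -0.05 and 0.08. Without Car2 the members' median was -0.75, -2.28, -1.33, -0.29, 0.03 and -0.87 from D0 to D28. Erythroid genes were lower in RAG1-/- on the same days and on D21, with 14, 13, 12, 2, 12 and 10 of 16 lower from D0 to D28, and their part in the members' differences was not tested. Of all tested genes, 2.00% were lower at D14 and 9.87% at D21.

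**Figure D2:**
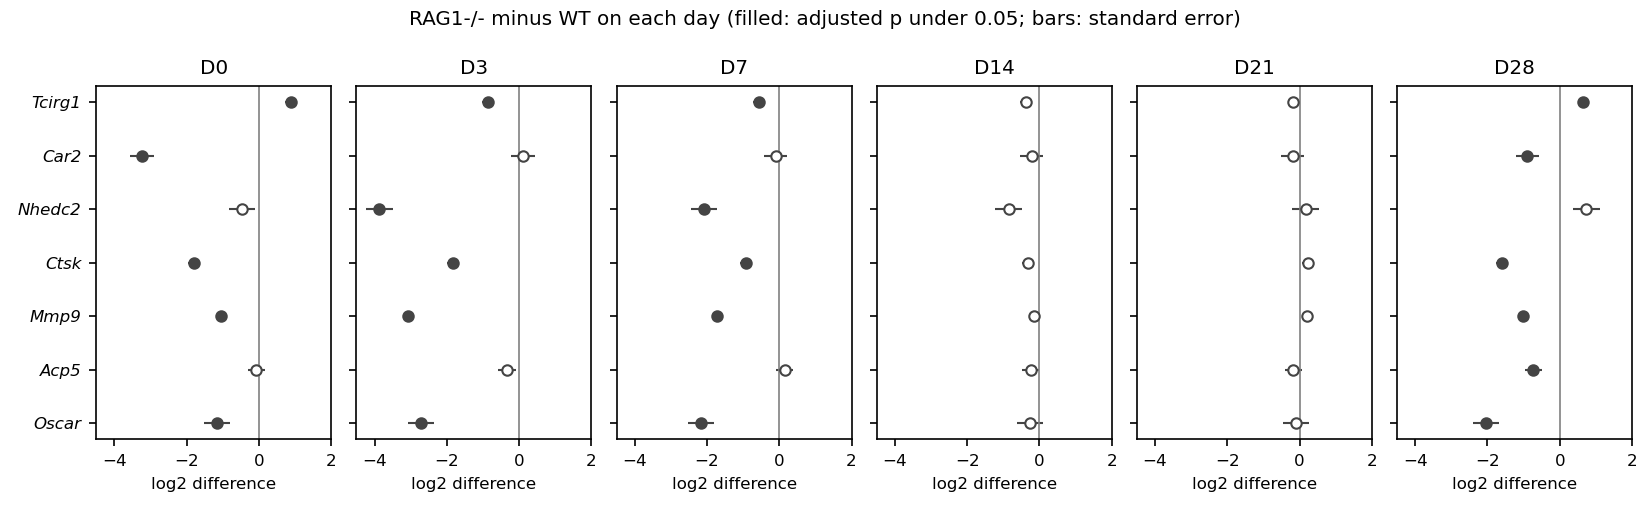
Difference in log2 signal, RAG1-/- minus WT, on the horizontal axis for each gene and day (point: difference of 2 means of 3 arrays; bar: standard error of the fit; filled: adjusted p under 0.05). The points lie left of 0 for Nhedc2, Ctsk, Mmp9 and Oscar at D3 and D7 (-0.93 to -3.86) and close to 0 at D21 (-0.19 to 0.23). The differences of D3 and D7 rest on the WT arrays that stood apart from the others.

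Change after fracture was read against D0 of the same genotype and called at an adjusted p under 0.01 and more than 2-fold. In WT, 4 of 7 genes rose and 1 fell at D3, where 27.3% of all tested genes passed, 13.3% up and 14.0% down. At D7, 5 rose and 1 fell (26.2% of all genes, 12.2% up and 14.0% down), as at D14 (12.9%, 7.74% up and 5.19% down) and D21 (10.1%, 4.70% up and 5.39% down). The WT counts of D3 and D7 rest on the arrays that stood apart. In RAG1-/-, 0 passed at D3 (3.04%), 3 rose at D7 (2.82% of all genes, 1.02% up), and 6 rose at D14 (5.02%, 2.58% up) and D21 (7.88%, 3.63% up). At D28 Car2 was the 1 call in WT (9.87% of all genes, 6.62% down) and Nhedc2 the 1 call in RAG1-/- (4.26%, 2.13% up). The gene that fell in WT was Car2 on each day, an outcome fixed by the filter, which Car2 passed through WT D0. Without it 0 of 6 fell on any day and 0 rose in WT at D28. The count of 0 in RAG1-/- D3 compares with 2 genes at an unadjusted p under 0.05, 0 with array weights and 1, Ctsk (0.81, adjusted p = 0.00111 in limma), with no limit on fold.

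The early WT rise was large for Nhedc2 (3.73 at D3, 13.3-fold), Tcirg1 (2.14), Mmp9 (1.94) and Oscar (1.50), whereas Ctsk did not reach the fold limit (0.85, adjusted p = 9.67e-05). In RAG1-/- at D3 the corresponding values were 0.34, 0.39, -0.11, -0.05 and 0.81. The WT values of D3 and D7 rest on the arrays that stood apart. Where both probes of a gene passed (adjusted p under 0.05 in limma), 20.1% of 558 genes had opposite directions in WT at D3. For WT at D7 it was 22.9% of 519, against 0% of 93 and 0.98% of 102 in RAG1-/-. Nhedc2, Mmp9, Oscar and Ctsk have 1 probe each, and the Tcirg1 probe ILMN_2746456 rose by 2.93 in WT at D3. By D7 Ctsk (1.98), Nhedc2 (2.22) and Mmp9 (1.28) had passed in RAG1-/-. At D21 the change from D0 was 4.26 for Ctsk in RAG1-/- and 2.23 in WT, and 3.56 and 2.32 for Mmp9, from a lower D0 in RAG1-/-. Nhedc2 rose by 5.06 in RAG1-/- and 4.43 in WT, but its D0 signal was below the filter level in all 3 RAG1-/- arrays and 2 of 3 WT arrays, so these sizes are not exact and are not compared. Acp5 rose by 1.14 in RAG1-/- and 1.24 in WT, also from a dim D0. Oscar passed in RAG1-/- at D14 and D21 (1.68 and 1.65), and in WT at D3 and D7, the D7 value of 1.21 (adjusted p = 0.00688) being lost without WT D0 array 1 (adjusted p = 0.0387) or 2 (adjusted p = 0.0301) and without WT D7 array 1 (adjusted p = 0.021) or 2 (adjusted p = 0.0334). The Ctsk call at WT D7 (1.12) fell under the fold limit without WT D7 array 3 (0.91), and the Acp5 call in RAG1-/- at D14 (1.04) was lost without RAG1-/- D0 array 2 (0.98) or 3 (0.95) or RAG1-/- D14 array 2 (0.95). Nhedc2 in RAG1-/- at D28 (1.62) was lost without RAG1-/- D0 array 2 (adjusted p = 0.0111) or 3 (adjusted p = 0.0132) or RAG1-/- D28 array 3 (adjusted p = 0.0197).

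**Figure D3:**
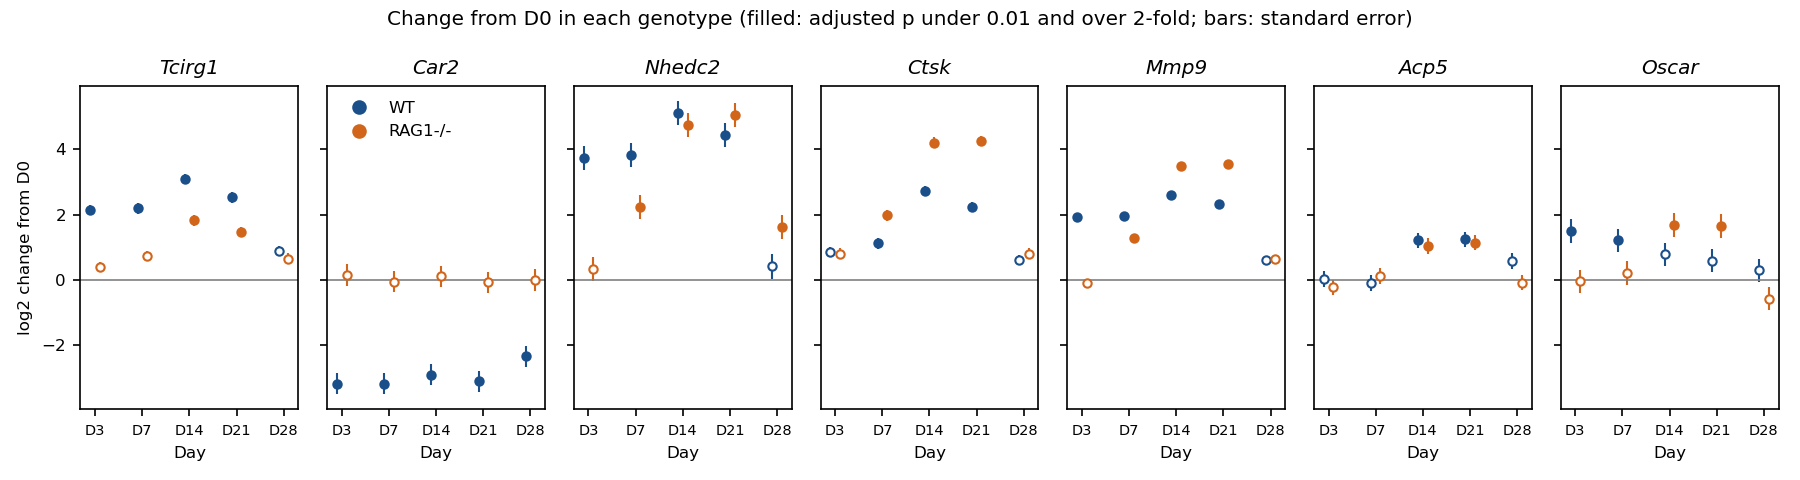
Change in log2 signal from D0 of the same genotype on the vertical axis by day, WT in blue and RAG1-/- in orange (bar: standard error of the fit; filled: adjusted p under 0.01 and over 2-fold). At D3 the WT points of Tcirg1, Nhedc2, Mmp9 and Oscar lie at 1.50 to 3.73 and the RAG1-/- points at -0.11 to 0.39, and at D21 the Ctsk points lie at 2.23 in WT and 4.26 in RAG1-/-. The WT points of D3 and D7 rest on the arrays that stood apart from the others.

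Whether that change differed between genotypes was tested directly, RAG1-/- change minus WT change, at an adjusted p under 0.05 and more than 2-fold. At D3, 5 of 7 genes passed (25.0% of all tested genes, 11.9% below 0 and 13.0% above), Tcirg1, Nhedc2, Mmp9 and Oscar below 0 and Car2 above. At D7, 3 passed (21.8%), at D14 3 (10.6%), at D21 4 (8.47%) and at D28 1 (8.99%). The counts of D3 and D7 rest on the WT arrays that stood apart. Every Car2 call is measured from WT D0 and was fixed by the filter on dim probes, and without Car2 the counts were 4, 2, 2, 3 and 0 of 6 from D3 to D28. Mmp9 passed below 0 at D3 (-2.05) and above 0 at D21 (1.24). Ctsk did not pass at D3 (-0.05, adjusted p = 0.912) and stood at 2.02 at D21. Tcirg1 stayed below 0 at D3 (-1.75), D7 (-1.46), D14 (-1.27) and D21 (-1.06), its D0 level being higher in RAG1-/-.

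With the 12 pools as the replicates and day as a block, which is the comparison whose error includes separate pools of mice, none of the 7 passed an adjusted p under 0.05 (4.49% of all tested genes did), 3 had an unadjusted p under 0.05, and 4 passed with the pool as a random block over the arrays. Oscar differed by -1.41 (95% interval -2.20 to -0.63, adjusted p = 0.0526) and was lower in RAG1-/- on 6 of 6 days. Ctsk differed by -1.04 (-1.70 to -0.38, adjusted p = 0.0641) and Mmp9 by -1.14 (-1.99 to -0.28, adjusted p = 0.0868), each lower on 5 of 6. Nhedc2 was at -1.06 (-2.23 to 0.11), Car2 at -0.76 (-1.66 to 0.15), Acp5 at -0.23 (-0.61 to 0.14) and Tcirg1 at -0.07 (-0.64 to 0.49). Without D3 and D7, the days of the WT arrays that stood apart, Oscar was at -0.90 (adjusted p = 0.23), Ctsk at -0.86 (adjusted p = 0.25), Mmp9 at -0.50 (adjusted p = 0.33) and Nhedc2 at -0.10 (adjusted p = 0.849), and none passed in limma. Without D14, Oscar (-1.64, adjusted p = 0.027) and Ctsk (-1.18, adjusted p = 0.0457) passed in limma.

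**Figure D4:**
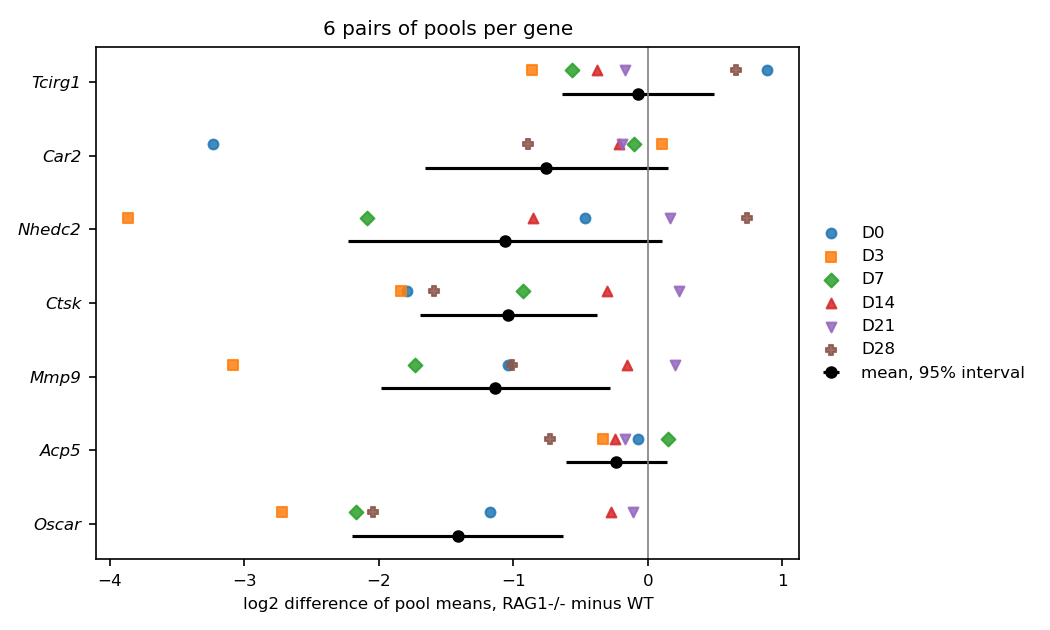
Difference of pool means in log2 signal, RAG1-/- minus WT, on the horizontal axis: colored symbols are the 6 days of each gene and black points their mean with the 95% interval of the fit. The intervals of Ctsk, Mmp9 and Oscar lie below 0 and those of the other 4 genes include it.

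Other genes of the pathway were counted from lists by role. Of 22 tested genes for acid secretion, 13 were lower and 5 higher in RAG1-/- at D3, 12 and 6 at D7, and 4 and 3 at D0 (median -0.79, -0.51 and -0.08). For these lists too, genotype differences at D3 and D7 and WT changes on those days rest on the WT arrays that stood apart. Of all tested genes, 23.5% were lower and 26.1% higher at D3, 21.4% and 27.2% at D7, and 7.39% and 12.8% at D0. Those lower at D3 included Plekhm1 (-2.52), which acts in lysosome positioning and fusion, the bicarbonate exchanger Slc4a2 (-2.36) and the pump subunits Atp6v0b (-2.32) and Atp6v1b2 (-1.66). Those higher included Atp6v0a2 (1.29), Ostm1 (1.26), the partner of the chloride channel Clcn7 (0.89), and Atp6v1g1 (0.96), while Atp6v1d (-0.08) and Atp6v1a (-0.18) did not pass. At D14, 1 of 22 was lower (Atp6v1e1, -0.42), against 2.00% of all genes. In WT, 9 of the 22 rose at D3 (13.3% of all genes) and 8 at D14 (7.74%). In RAG1-/-, 0 rose at D3 (0.972% of all genes) and 7 at D14 (2.58%), with Snx10, a sorting nexin that osteoclasts need for resorption, up by 2.64 in RAG1-/- and 2.40 in WT at D14.

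Among 26 tested genes of osteoclast differentiation, fusion and attachment, 13 were lower and 3 higher in RAG1-/- at D3, and 9 and 6 at D7 (median -0.52 and -0.19), beside 23.5% lower and 26.1% higher of all tested genes at D3 and 21.4% and 27.2% at D7. Lower ones at D3 were led by Tnfrsf11a (-2.62), which is RANK, the receptor for the osteoclast-forming cytokine RANKL, the kinase Btk (-2.00), the RANK adaptor Traf6 (-1.90) and the kinase Src (-1.67). Higher ones were Cd9 (2.36), Nfkb1 (1.79) and Relb (1.59). These D3 and D7 values rest on the WT arrays that stood apart. Each listed gene was read from its brightest probe alone, although Plekhm1 and Src have 2 probes on the array, Traf6 3 and Nfatc1 6. At D28 the count ran the other way, 9 higher and 2 lower (19.5% and 9.91% of all genes), with the lower ones Nfatc1 (-1.34), the master transcription factor of osteoclast formation, and Traf6 (-0.72), and the higher ones led by Mmp14 (3.31), Trem2 (2.69) and Fcer1g (1.95). No change of Nfatc1 from D0 passed, its group means lying at 7.73 to 8.72 in WT and 7.26 to 7.79 in RAG1-/-. Csf1r, the receptor of the macrophage growth factor, rose by 1.88 in WT and 1.80 in RAG1-/- at D14.

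Lysosomal enzymes and membrane proteins leaned higher in RAG1-/- at D0 already (11 higher and 1 lower of 27, median 0.41). They showed no common direction at D3 (10 higher and 9 lower) and were mostly higher at D28 (17 and 0, median 0.71), Cd68 by 2.37 and Ctsh by 1.93. Macrophage genes (19 tested of 25 on the array) were 5 higher and 1 lower at D0 (median 0.44). They were likewise higher at D28, 14 and 0 (median 1.35), with a mean level of 6.96 to 7.01 in RAG1-/- and 5.43 to 5.63 in WT. Of all tested genes, 12.8% were higher and 7.39% lower at D0, 26.1% and 23.5% at D3, and 19.5% and 9.91% at D28. Ctsk, Mmp9 and Oscar were lower at D28, and the part of other cell types in any of these values was not tested.

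The likeness of the 6 genes other than Car2 over the 12 pools was described by Pearson r, the pools sharing a normalisation. Ctsk and Mmp9 were at 0.96, Mmp9 and Nhedc2 at 0.96, Nhedc2 and Tcirg1 at 0.92, and Acp5 and Oscar lowest at 0.49. The order of the low pairs depended on the WT pools of D3 and D7, whose arrays stood apart. Over the 10 pools without them, Acp5 and Oscar were at 0.90 and Ctsk and Oscar at 0.90. Oscar and Tcirg1 were then lowest at 0.49. Within RAG1-/- the 6 pools gave 0.86 or more for each pair of the 6 genes, and within WT they ranged from -0.22 (Acp5 and Oscar) to 0.99 (Mmp9 and Tcirg1), with Ctsk and Oscar at 0.27. The WT values include the pools of D3 and D7. Car2 was at -0.65 to 0.05 with the others. Among 10284 other tested genes, the 3 most like each member were Snx10 (0.97), Arsb and Spp1 for Ctsk, Atp6v1b2 (0.97), Mmp13 and Agap1 for Mmp9, Atp6v1b2 (0.96), Arsb and Pstpip1 for Nhedc2, Bmp1 (0.97), Spred1 and Sema7a for Tcirg1, Agap1 (0.93), Shf and Bdh2 for Oscar, Rab38 (0.95), Rufy4 and Sdc2 for Acp5, and Ermap (0.996), 4432416J03Rik and Dse for Car2. At r of 0.9 or more stood 7 genes for Ctsk, 13 for Mmp9, 18 for Nhedc2, 13 for Tcirg1, 4 for Oscar, 3 for Acp5 and 9 for Car2. The r values of Car2 are set by its 1 high pool, WT D0.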

How the data were processed

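Total RNA of 12 pools was hybridised to Illumina MouseRef-8 v2.0 arrays, 3 per pool. The authors pre-processed the arrays with the beadarray package and quantile-normalised them between arrays with lumi (versions not given in the sources used here) and deposited log2 values; their largest value, 15.2, is the ground for taking base 2. Gene symbols came from the deposited probe export, and its 264 signal columns, which name chip positions not paired with samples, were not used. Array medians were 4.65 to 4.66. The number of arrays limits the precision.

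A probe was kept (12848 were) when its mean over the 36 arrays exceeded 4.72, the median of such means, and a gene was represented by its brightest kept probe. Groups were taken from the labels. All 36 arrays were fitted with 12 group means in limma 3.58.1 (R 4.3.3, data.table version 1.17.8), with empirical Bayes moderation and Benjamini-Hochberg adjustment over 10291 genes. Genotype differences were called at an adjusted p under 0.05, changes from D0 at 0.01 and over 2-fold, and differences of change at 0.05 and over 2-fold. Pool means were fitted with day as a block. All tests were two-sided, and the fit was tested on simulated data. Orders, likeness and promoter letters (Python 3.11.15, pandas 2.3.3) are descriptions, and figures used matplotlib 3.10.9.

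Members and gene lists (acid secretion; osteoclast differentiation, fusion and attachment; lysosomal; erythroid; neutrophil; monocyte and macrophage) were chosen with earlier results of these data known. Named genes are the members, the 3 tested genes most like each, and of each list up to 4 passing in each direction by size and up to 3 not passing by level, with Alas2, Slc4a1, S100a8, S100a9, Csf1r and Nfatc1; other osteoclast markers were named to check the label. Alternatives covered the filter, the probes of a gene, array weights, the arrays in the fit, the methods' t-test, the limits, a replicate block, the pools and days, and leaving out each array; leaving out arrays 2 and 3 of WT D14 together was chosen after seeing the data.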

Additional observations from a re-analysis of the deposited data

Results flagged for a closer look

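The change from D0 differed between the genotypes in 16 of the tests of the 7 genes (RAG1-/- change minus WT change, limma with Benjamini-Hochberg adjustment over all tested genes, more than 2-fold). Of these, 5 are for Car2 and were fixed by the filter on dim probes, which Car2 passed through WT D0, the baseline of each, and 11 are for the other 6 genes. These tests share their D0 arrays and are not independent of each other. Those at D3 and D7 also rest on the WT arrays that stood apart.

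For Car2 the difference was 3.34 at D3, 3.13 at D7, 3.02 at D14, 3.04 at D21 and 2.34 at D28, every one set by the WT D0 arrays, since the probe lay near the filter level in RAG1-/- throughout. For Tcirg1 it was -1.75 at D3, -1.46 at D7, -1.27 at D14 and -1.06 at D21. The D21 value fell under the fold limit without WT D0 array 1 (-0.90) or RAG1-/- D0 array 2 (-0.98), and the D14 value without arrays 2 and 3 of WT D14 together (-0.72).

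For Nhedc2 it was -3.39 at D3 and -1.62 at D7, the second lost without WT D0 array 2 (-1.48, adjusted p = 0.0518) or 3 (-1.42, adjusted p = 0.0574). For Oscar it was -1.55 at D3, lost without WT D0 array 1 (-1.39, adjusted p = 0.0529). For Mmp9 it was -2.05 at D3 and 1.24 at D21, and at D14 it passed without arrays 2 and 3 of WT D14 (1.09). For Ctsk it was 1.49 at D14 and 2.02 at D21, and at D7 it passed without WT D7 array 3 (1.08). At D28 Nhedc2 passed without WT D28 array 1 (1.94) and Oscar without WT D28 array 2 (-1.59).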

How the results depend on the processing

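No called value of a member changed sign under any alternative. Of 541 alternatives for the members' genotype differences 513 gave the same outcome, of 897 for changes from D0 866, of 592 for differences of change 582 and of 98 over the days 90. Results that did not pass in either setting count as the same outcome. Calls lost and gained were 19 and 9 for genotype differences, and 19 and 12 for changes from D0. They were 6 and 4 for differences of change, and 0 and 8 over the days. The number of members called in the genotype difference at D14 was 6 with array weights in place of 0, and 0 to 2 with 1 array left out, the 2 being Ctsk and Tcirg1 without WT D14 array 1. At D28 it was 3 in place of 6 with only the groups compared in the fit and 3 by the methods' t-test. For the change in WT at D28 it was 0 with the stricter filter, 2 with the mean of a gene's probes, 0 with only the groups compared and 4 at an adjusted p under 0.05 with no limit on fold, in place of 1, and 1 to 2 with 1 array left out. In RAG1-/- that looser limit gave 1 at D3 in place of 0 and 4 at D28 in place of 1, and leaving out 1 array gave 0 to 1 at D28. The difference of change at D28 had 0 members with the stricter filter in place of 1, and 1 to 2 with 1 array left out. Over the days, 1 passed with no day block, 2 without D14, 4 with the pool as a random block and 0 to 1 with 1 replicate number left out, in place of 0. The random block was fitted over all arrays, so its error is not that of separate pools.

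Replicate numbers did not pair the arrays, since deviations of same-numbered arrays correlated at -0.034 to 0.040, and with the replicate block the genotype counts stayed at 5, 5, 5, 0, 0 and 6 from D0 to D28. Causes of these shifts were not tested. Dim signal limits Acp5, Car2 and the early values of Nhedc2, and 1 pool per group leaves the spread between mice unmeasured on each day.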
